A study of Mus musculus with 13 samples.

Results

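Kcnma1, Usp53 and 9130230L23Rik are 3 genes of the 35013 symbols in the estimated-count table. They were chosen by their log2 fold changes against WT, which are among the largest decreases of nascent RNA shared by both mouse models of kidney iron excess. Those values are therefore given below as a description without a test. For these 3 genes, only the comparison of Spns1 KO with FeO was tested. It sets no WT library against another group, but its fit took the spread from all 13 libraries, WT included.

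RNA made during a 4-thiouracil labelling window was captured from kidneys of female mice in which the megalin locus drives a tamoxifen-inducible Cre (Megalin3'Cre-Ert). The same Cre switches on 1 allele of uracil phosphoribosyltransferase (Uprt flox/+), the enzyme that lets 4-thiouracil enter new RNA, so labelling is meant to mark megalin-expressing proximal tubule cells. All 3 groups carried the Cre and the Uprt allele and received tamoxifen. The 4 Spns1 KO libraries came from Spns1 flox/flox mice, in which Cre removes the endolysosomal transporter Spns1. The 5 WT libraries are labelled Spns1 WT, and the study's methods give their genotype as Spns1 flox/+. The 4 FeO libraries share the WT genotype and came from mice that received daily iron injections over 3 days and were killed 1 week after them. The labels give the daily dose as 12 mg of iron sucrose, and the study's methods give it as 12 mg of elemental iron in that form.

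Total estimated counts lay between 31809135 and 71296474 in Spns1 KO, 23068023 and 37362311 in WT, and 25986133 and 29981814 in FeO. Levels are given in CPM, counts relative to a library size scaled by the trimmed mean of M values, and 16468 genes had enough counts to be tested, the 3 described here among them. A gene was called changed at an adjusted p under 0.05 and a log2 fold change beyond 0.5 either way. Spns1 itself, counted over the whole gene, was at 36.6 to 59.0 CPM in the libraries labelled Spns1 KO, 39.3 to 62.9 in WT and 39.0 to 58.7 in FeO. These ranges overlapped, the log2 fold change against WT was -0.31 (SE 0.18, edgeR adjusted p = 0.226), and the group names below are those of the labels. The study itself reports loss of Spns1 RNA and protein in proximal tubules of such conditional knockouts. Its loxP sites lie on either side of exon 3, and the counts used here do not separate exons. Why the ranges overlapped was not tested.

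Kcnma1 encodes the pore-forming subunit of the large-conductance potassium channel that opens with voltage and intracellular calcium. In the kidney this channel is best known for flow-stimulated potassium secretion in the distal nephron, and it also acts in smooth muscle and mesangial cells. Usp53 encodes a member of the ubiquitin-specific protease family that lies at tight junctions and binds the scaffold protein Tjp1. For 9130230L23Rik, a RIKEN cDNA gene, no role is stated here.

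In the GENCODE M21 annotation of GRCm38, all 3 genes lie on the minus strand. Kcnma1 (ENSMUSG00000063142) spans chr14:23289431-24014491, or 725 kb, a span longer than that of 99.4% of the tested genes with an annotation. Its longest transcript has 12094 bases. Usp53 (ENSMUSG00000039701) spans chr3:122931493-122984510, or 53.0 kb, with a longest transcript of 6185 bases. 9130230L23Rik (ENSMUSG00000054598) spans chr5:65979358-66004285, or 24.9 kb, with a longest transcript of 3580 bases. GENCODE lists it as protein coding, whereas RefSeq lists it as a long non-coding RNA. Few of their 31-base words also occur in transcripts of other genes, with shares of 0.373% for Kcnma1, 1.28% for Usp53 and 2.68% for 9130230L23Rik.

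The RefSeq promoter sequences are shown because these genes were lower together in both models and their start regions can be set side by side. Promoters of Kcnma1 (chr14:24004156-24004455, minus strand) and 9130230L23Rik (chr5:66004236-66004535, minus strand) were in the RefSeq table for GRCm38.p6, and Usp53 was not matched. Each runs 5' to 3' from 250 bases before a RefSeq start site to 50 bases after it, with matches to the GC box GGGCGG on either strand in capitals. The Kcnma1 window lies inside the gene's span, which reaches 24005110 in RefSeq and 24014491 in GENCODE, so its start site is not the outermost.
Kcnma1: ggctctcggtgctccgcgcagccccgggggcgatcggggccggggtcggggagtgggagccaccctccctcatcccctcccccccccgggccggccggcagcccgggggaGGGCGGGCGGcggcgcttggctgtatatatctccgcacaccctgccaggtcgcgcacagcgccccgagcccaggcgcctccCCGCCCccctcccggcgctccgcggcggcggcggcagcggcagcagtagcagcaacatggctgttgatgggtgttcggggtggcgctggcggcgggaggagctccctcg
9130230L23Rik: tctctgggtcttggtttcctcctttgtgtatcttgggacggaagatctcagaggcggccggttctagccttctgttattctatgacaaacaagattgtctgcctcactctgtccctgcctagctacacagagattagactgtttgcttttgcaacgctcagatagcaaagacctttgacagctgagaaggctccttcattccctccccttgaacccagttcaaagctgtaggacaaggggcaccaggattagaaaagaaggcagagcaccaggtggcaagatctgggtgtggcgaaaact
The Kcnma1 window had a GC content of 78.0%, higher than that of 98.1% of all promoters in the table, and the window of 9130230L23Rik had 49.7%. GC boxes matched the Kcnma1 window at 3 places, starting 140, 136 and 59 bases before the start site, and the upstream pair overlap. Of the 32851 promoters of this length, 35.7% hold a GC box. On both strands, the E-box CACGTG and the hypoxia core ACGTG were also searched. So were the cyclic AMP element TGACGTCA and the antioxidant core TGACNNNGC. The HNF1 site GTTAAT and the glucocorticoid site AGAACA followed. The core promoter letters searched were TATAAA and CCAAT. The full glucocorticoid palindrome and the direct repeat 1 of nuclear receptors were searched as well. None of these letters was found in either window, and they occur in between 0.009% and 37.4% of promoters. The hypoxia core lies inside the E-box, so their matches overlap.

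Kcnma1 was the lowest of the 3 genes in WT per length, at 0.669 CPM per kb of transcript, which ranked 12872 of 16162 genes. Usp53 was at 26.9 CPM per kb (rank 1762) and 9130230L23Rik at 10.3 CPM per kb (rank 5427). All 3 were lower in every Spns1 KO and every FeO library than in any WT library, a pattern that 4.14% of all tested genes showed. The choice of the genes fixed this pattern, and nothing is read from it.

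Kcnma1 stood at 7.60, 8.10, 8.28, 9.96 and 6.52 CPM in WT 1 to 5. Spns1 KO 1 to 4 had 1.13, 1.35, 1.40 and 2.27 CPM, which rest on 76, 50, 42 and 96 estimated counts. FeO 1 to 4 had 3.77, 4.32, 3.75 and 2.36 CPM. The groups did not overlap, but the highest Spns1 KO library and the lowest FeO library lay next to each other. Kcnma1 averaged 8.09 ± 1.25 CPM over the WT libraries (SD, n = 5), 1.54 ± 0.50 over Spns1 KO (SD, n = 4) and 3.55 ± 0.83 over FeO (SD, n = 4). Kcnma1 RNA was thus at 19.0% of the WT mean in Spns1 KO, with a log2 fold change of -2.40 (SE 0.25), and at 43.8% in FeO, with -1.19 (SE 0.24). When the trend of fold change with transcript length and GC content was removed, the values were -2.0 and -0.45, the latter inside the 0.5 limit used for calls. The captured RNA is a bulk sample of many cells, in which fewer expressing cells and less new RNA per cell cannot be told apart.

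Usp53 was at 160, 165, 190, 158 and 158 CPM in WT 1 to 5. In Spns1 KO 1 to 4 it was at 33.8, 34.2, 32.3 and 145 CPM. FeO 1 to 4 had 37.8, 56.3, 32.2 and 43.7 CPM. Thus 3 of the 4 Spns1 KO libraries lay within the FeO range, and Spns1 KO 4 lay just under the lowest WT library. Usp53 averaged 166 ± 13.3 CPM over WT (SD, n = 5), 61.3 ± 55.8 over Spns1 KO (SD, n = 4) and 42.5 ± 10.3 over FeO (SD, n = 4), so the Spns1 KO spread was almost as large as its mean. Against WT, Spns1 KO stood at -1.44 on the log2 scale (SE 0.39), or 36.9% of the WT mean, and FeO at -1.97 (SE 0.40), or 25.6%. Without Spns1 KO 4, the value in Spns1 KO was -2.31.

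9130230L23Rik was at 38.3, 38.0, 26.6, 30.2 and 50.5 CPM in WT 1 to 5. Spns1 KO 1 to 4 had 12.98, 18.5, 8.98 and 25.2 CPM. FeO 1 to 4 had 4.00, 9.02, 10.5 and 13.5 CPM. Spns1 KO and FeO overlapped, and Spns1 KO 4 again came nearest to WT, just under WT 3. The gene averaged 36.7 ± 9.23 CPM over WT (SD, n = 5), 16.4 ± 7.05 over Spns1 KO (SD, n = 4) and 9.26 ± 3.98 over FeO (SD, n = 4). Against WT, Spns1 KO stood at -1.16 on the log2 scale (SE 0.33), or 44.8% of the WT mean, and FeO at -1.99 (SE 0.34), or 25.2%.

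**Figure D1:**
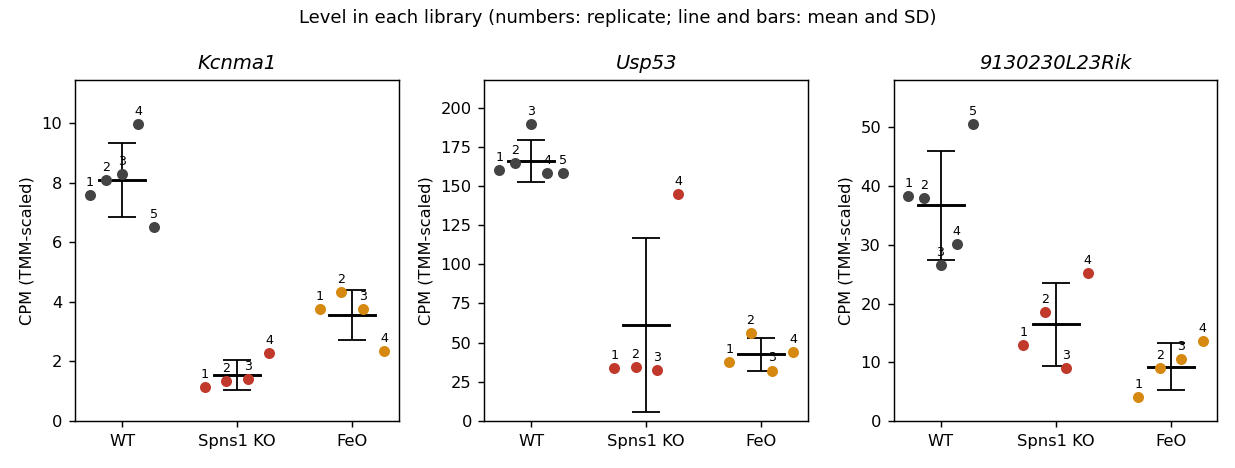
Level of each gene in every library, in CPM from 0 on the vertical axis, with points numbered by replicate and lines and bars for the group mean and SD. All Spns1 KO and FeO points lie under the lowest WT point of their gene, and Spns1 KO 4 is the highest Spns1 KO point for all 3 genes, at 145 CPM for Usp53.

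Spns1 KO 4 was the highest Spns1 KO library for each of the 3 genes. Across the 3252 genes called lower in FeO than in WT, it was the highest Spns1 KO library for 80.5%. Leaving it out raised the number of genes called lower in Spns1 KO from 1243 to 2677, whereas leaving out Spns1 KO 1, 2 or 3 reduced it to 527, 525 or 504 and leaving out WT 3 reduced it to 560. Its part in the values of the 3 genes was not tested beyond the values without it.

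By size, the 3 genes sat at the head of 356 genes that were called lower in both models, averaged 100 counts or more and had no overlap with WT. Kcnma1 ranked 1 by mean log2 fold change over both models (-1.79), Usp53 ranked 3 (-1.70) and 9130230L23Rik ranked 4 (-1.57). Plin4, a lipid droplet coat gene that is no member of the set, ranked 2 (-1.75). Just outside stood Pdk4, a kinase that restrains pyruvate oxidation, also at -1.57, and Fyb2 at -1.49. Of all tested genes, 7.55% were called lower in Spns1 KO, 19.7% in FeO and 4.6% in both. The calls of the 3 genes in both models were fixed by their choice, and nothing is read from them. The contrasts with WT share the same 5 WT libraries.

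The direct comparison asks whether the genetic and the injected iron model differ in these genes. Kcnma1 was lower in Spns1 KO than in FeO by 2.31-fold, with a log2 fold change of -1.21 (SE 0.26, 95% confidence interval -1.75 to -0.66, edgeR adjusted p = 0.00887 over all genes tested). Each of the 4 Spns1 KO libraries was below each of the 4 FeO libraries, and the exact two-sided permutation test, 1 of 3 run, gave an unadjusted p = 0.0286, the smallest that 4 against 4 allows. The share of all tested genes that separate in this way is not given here, so the separation is not read as particular to Kcnma1. The call held in every fit with 1 library left out, with values between -1.46 and -1.08. In a fit of the Spns1 KO and FeO libraries alone, the value was -1.21 (SE 0.32, edgeR adjusted p = 0.049), barely under the limit. Of all tested genes, 14.9% were called in this comparison in either direction.

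Usp53 and 9130230L23Rik were not called different between the models. Usp53 had a log2 fold change of 0.53 for Spns1 KO against FeO (SE 0.40, 95% confidence interval -0.31 to 1.37, edgeR adjusted p = 0.368, exact permutation p = 0.914). Without Spns1 KO 4 its direction turned, to -0.35 (edgeR adjusted p = 0.211). 9130230L23Rik had 0.83 (SE 0.34, 95% confidence interval 0.096 to 1.56, edgeR adjusted p = 0.109, exact permutation p = 0.20), and 0.55 without Spns1 KO 4. These intervals reach past a doubling, so they do not show equal levels. The order of the means was WT, FeO, Spns1 KO for Kcnma1 and WT, Spns1 KO, FeO for the other two. For Usp53 and 9130230L23Rik the libraries of the lower groups overlapped and the difference was not called, although the unadjusted interval of 9130230L23Rik lay above 0.

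**Figure D2:**
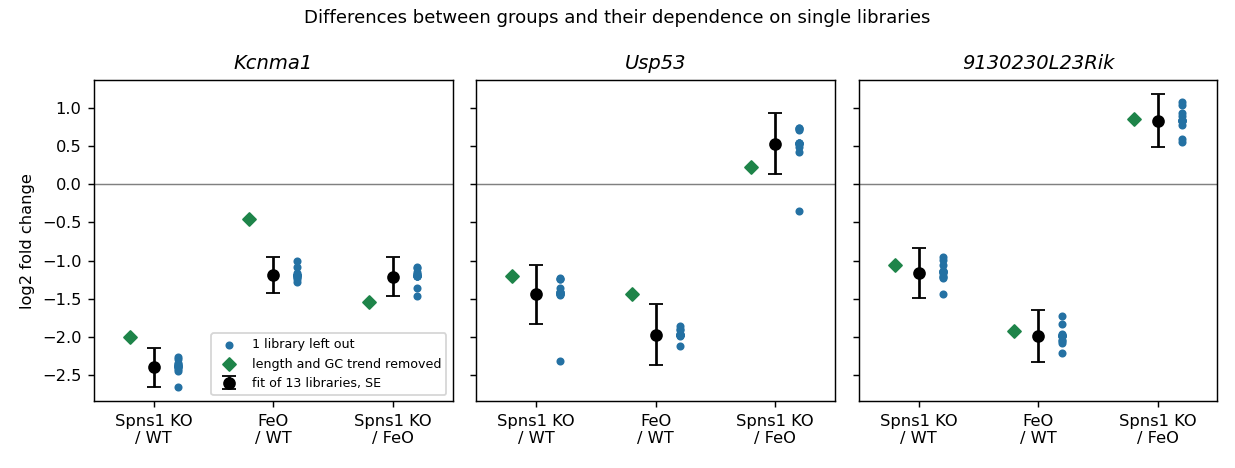
Log2 fold change of each gene for Spns1 KO against WT, FeO against WT and Spns1 KO against FeO, with black points and bars for the fit of 13 libraries and its SE, blue points for fits with 1 library left out and green diamonds for the fit with the length and GC trend removed. For Usp53 a single blue point, the fit without Spns1 KO 4, lies apart at -2.31 against WT and at -0.35 against FeO.

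Markers of 9 kidney cell types were read beside these levels, against 14% of all genes called higher and 7.55% lower in Spns1 KO, and 22.4% higher and 19.7% lower in FeO. Proximal tubule markers summed to 4029 to 5599 CPM in WT, 7620 to 8974 in Spns1 KO and 2151 to 6008 in FeO, with 5 of 9 called higher in Spns1 KO and 1 higher and 1 lower in FeO. Intercalated cell markers, of a cell type known for Kcnma1 expression, summed to 212 to 351 CPM in WT, 180 to 259 in Spns1 KO and 196 to 695 in FeO. Of these 5 markers, 2 were called higher and 1 lower in Spns1 KO, and 3 were called higher in FeO. Smooth muscle and mesangial markers summed to 101 to 137 CPM in WT, 147 to 167 in Spns1 KO and 128 to 267 in FeO, and 3 of the 6 were called higher in FeO.

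Collecting duct principal cell markers summed to 262 to 474 CPM in WT, 218 to 378 in Spns1 KO and 459 to 1178 in FeO, with 4 of 5 called higher in FeO and 1 higher and 1 lower in Spns1 KO. Markers of the thick ascending limb and distal convoluted tubule summed to 1648 to 3854 CPM in WT, 2923 to 3964 in Spns1 KO and 1717 to 4610 in FeO, and 2 of 4 were called higher in Spns1 KO. Podocyte markers summed to 164 to 294 CPM in WT, 234 to 297 in Spns1 KO and 282 to 651 in FeO, with 2 of 5 called higher in Spns1 KO and 3 in FeO. All 3 of these lists reached their highest level in an FeO library.

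Immune markers summed to 47.2 to 55.0 CPM in WT, 64.7 to 79.8 in Spns1 KO and 66.2 to 95.0 in FeO, with 1 of 5 called higher in Spns1 KO and 3 in FeO. Fibroblast markers summed to 42.6 to 67.1 CPM in WT, 66.4 to 95.9 in Spns1 KO and 37.1 to 74.5 in FeO, and 2 of 3 were called higher in Spns1 KO. Endothelial markers summed to 194 to 250 CPM in WT, 219 to 257 in Spns1 KO and 178 to 319 in FeO, with 1 of 5 called higher in Spns1 KO and 1 higher and 1 lower in FeO. No marker on these lists was at 0 in all libraries, and the part of cell makeup in the levels of the 3 genes was not tested.

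Levels of a few other genes followed each member closely over the 13 libraries. The measure was the root mean square difference of log2 CPM, each gene centred on its own mean, among the 12208 genes averaging 100 counts or more. The genes nearest to Kcnma1 were Ugt1a6b (0.40), a glucuronosyltransferase, Fanca (0.44), of the Fanconi anaemia DNA repair complex, and Arrdc3 (0.53), an arrestin-domain adaptor. Ugt1a6b shared the larger decrease in Spns1 KO, with log2 fold changes of -2.23 there and -0.89 in FeO, whereas Arrdc3 had -1.38 and -1.28.

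Usp53 had closer matches, with Exph5 (0.27), a Rab27 effector, Hivep2 (0.28), a zinc finger factor, and Arhgef37 (0.28), which has a guanine nucleotide exchange domain. For 9130230L23Rik the nearest were Xkrx (0.34), Cfap53 (0.34), a cilium-associated gene, and Zmiz1 (0.39), a transcriptional co-regulator. Usp53 and 9130230L23Rik were 0.62 apart, Kcnma1 and Usp53 0.69, and Kcnma1 and 9130230L23Rik 1.01. This last distance is about the size of each gene's own deviation over the libraries, which was 1.01 to 1.07. All of these distances were taken over the same libraries, including the WT libraries used to choose the 3 genes, and they are a description without a test.

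**Figure D3:**
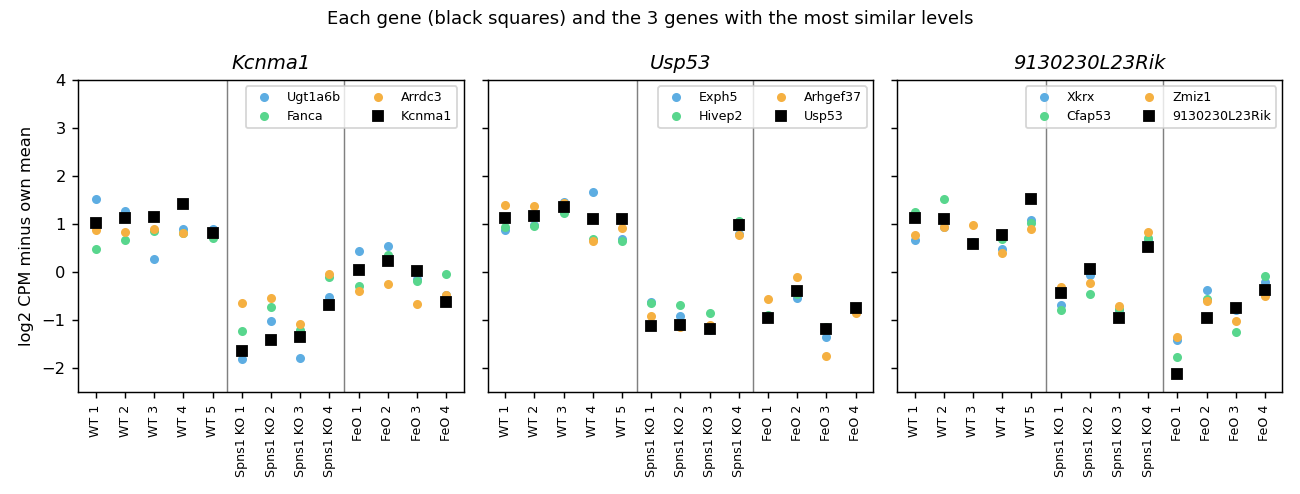
Log2 CPM of each gene (black squares) and of the 3 genes nearest to it in level, each centred on its own mean, in each of the 13 libraries ordered by group. Usp53 and its 3 nearest genes all stand near their WT level in Spns1 KO 4 and below their mean in the other 3 Spns1 KO libraries.

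Genes beside the 3 members did not share one direction. Of the 5 other tested genes that start within 500 kb of Kcnma1, Rps24, a ribosomal protein gene, was called higher in both models. Gm6158 was called higher in FeO, at 1.72 on the log2 scale, and Dlg5, Polr3a and E330034G19Rik were called lower there. Lrmda, the nearest listed gene on the downstream side, was called higher in both models with log2 fold changes of 1.23 and 1.04. Gm46443, which overlaps Kcnma1, had no count in any library.

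Around Usp53, 7 other genes were tested, and 1810037I17Rik, which ends 5309 bases from it, was called higher in both models with log2 fold changes of 1.28 and 1.38. Sec24d was called lower in Spns1 KO and Mettl14, an RNA methyltransferase subunit, was called lower in FeO. Myoz2, on the other side, had at most 6 counts. Around 9130230L23Rik, 7 genes were tested and N4bp2 was called lower in both models, at -0.81 and -1.19. Rbm47, an RNA-binding protein gene 12264 bases away, had -0.61 without a call in Spns1 KO and was called lower in FeO at -0.75. Pds5a was called lower and Smim14 higher in FeO. Chrna9, the nearest gene on the other side, had at most 1 count.

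**Figure D4:**
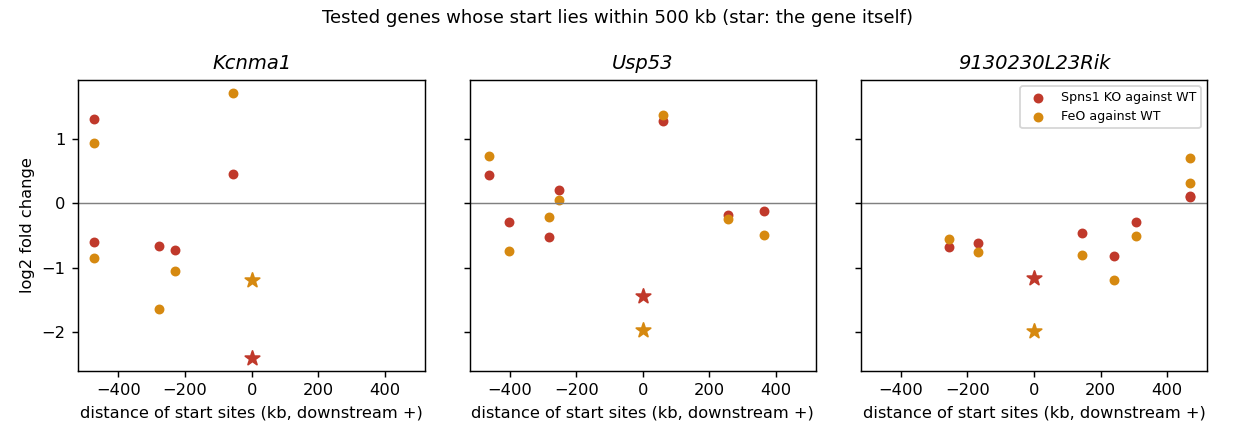
Log2 fold change against WT of each tested gene that starts within 500 kb of a member, against the distance in kb between start sites, with stars for the member itself. The genes within 100 kb of Kcnma1 and Usp53 have values above 0 in both models, opposite to the stars.

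The potassium channel list held 54 subunits and regulators besides Kcnma1, of which 44 were tested. In Spns1 KO, 2 were called higher (Kcnn1 and Kcnj16) and 1 lower (Kcnq5), beside 14% and 7.55% of all genes. In FeO, 6 were called higher and 5 lower, beside 22.4% and 19.7%, so the share lower was below that of all genes. The list's median was -0.08 on the log2 scale for Spns1 KO and -0.05 for FeO, against -0.05 and -0.01 over all genes. Kcnn1, a small-conductance calcium-activated channel and the only one called the same way in both models, was higher at 1.10 and 1.25. By comparison, 4.6% of all genes were called lower and 9.38% higher in both. Kcnn1 rested on 12 to 89 counts per library.

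Kcnk5, a two-pore potassium channel gene of the proximal tubule, was called lower in FeO at -2.57, and had -1.01 without a call in Spns1 KO. Kcnq5 was called lower in Spns1 KO at -1.63 and had -0.73 without a call in FeO, resting on 4 to 22 counts per library. Kcnmb4, an auxiliary beta subunit, was at 0.23 to 0.74 CPM over all libraries, with log2 fold changes of -0.39 and -0.55 and no call. Lrrc26, an auxiliary gamma subunit, had 1 to 11 counts per library and was not tested. Other subunits of these kinds were better covered, with Kcnmb1, a beta subunit, at 14 to 151 counts per library and mean levels of 2.03, 2.11 and 1.53 CPM for WT, Spns1 KO and FeO. Lrrc52, a gamma subunit, had 40 to 126 counts per library and means of 2.43, 1.47 and 2.84 CPM in that order. Neither was called in either model, and both were added after their values were seen.

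In Spns1 KO, the 2 potassium channel genes called higher became 1 without any single one of Spns1 KO 1, 2 or 3 or WT 1, 2 or 3. All genes called higher fell from 2307 to between 1531 and 2055 in these fits. The 1 called lower became 5 without Spns1 KO 4 and 2 without Spns1 KO 3, WT 4, FeO 3 or FeO 4. All genes called lower rose from 1243 of 16468 to 2677 of 16651 without Spns1 KO 4. In the other fits just named they were between 504 and 1295. In FeO, leaving out FeO 1 gave 3 higher and 3 lower, and leaving out FeO 2 gave 10 higher. Of all 16681 genes, 3294 were called higher and 2333 lower in FeO without FeO 1. Without FeO 2, 4042 of all 16690 genes were called higher.

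The tight junction list held 45 genes, of which 44 were tested. In Spns1 KO, 3 were called higher and 7 lower, and in FeO 11 were called higher and 11 lower. The shares lower were 15.9% and 25.0%, beside 7.55% and 19.7% of all genes. The shares higher were 6.82% and 25.0%, beside 14% and 22.4% of all genes. Median log2 fold changes were -0.05 and 0.12. Tjp1, the junction scaffold that Usp53 protein binds, was called lower in both models, at -0.78 (SE 0.19, edgeR adjusted p = 0.00959) and -0.89 (SE 0.19, edgeR adjusted p = 0.00212). Tjp1 averaged 165 ± 33.3 CPM over WT (SD, n = 5), 95.8 ± 24.4 over Spns1 KO (SD, n = 4) and 88.7 ± 9.78 over FeO (SD, n = 4), with Spns1 KO 4 at 129 CPM and the lowest WT library at the same level.

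Cldn14, a claudin, and Mpp5, a polarity scaffold, were also called lower in both models. In all, 3 of the 44 tested genes of the list were called lower in both and 1 higher, beside 4.6% and 9.38% of all genes. Cldn14 was at -2.79 and -1.34, resting on 1 to 25 counts per library, and Mpp5 at -0.60 and -0.79. Cldn10, a pore-forming claudin, was called higher in both models at 0.90 and 2.03. Cldn7 and Cldn19 were called higher in FeO at 1.44 and 1.41, with -0.02 and 0.35 in Spns1 KO.

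Ildr1 and Ildr2, related proteins of tricellular junctions, were the only genes of the tight junction list called in opposite directions in the 2 models. They were singled out after their values were seen. The share of all tested genes called in opposite directions is not given here, so the pattern is not read as particular to this list. Ildr1 was lower in Spns1 KO at -0.89 and higher in FeO at 0.68, and the models differed by -1.57 (SE 0.24, edgeR adjusted p = 0.00251). Ildr2 was higher in Spns1 KO at 0.81 and lower in FeO at -0.65, with a difference of 1.45 (SE 0.25, edgeR adjusted p = 0.00378). The 3 tight junction genes called higher in Spns1 KO became 1 without Spns1 KO 1 and 5 without Spns1 KO 4 or FeO 3. All genes called higher there were 1601 of 16700 without Spns1 KO 1 and 3003 of 16651 without Spns1 KO 4. Without FeO 3 they were 2403 of 16707. With the length and GC trend removed, 3 rather than 11 were called lower in FeO, beside 2092 of all 16162 genes.

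The ubiquitin-specific protease family held 49 symbols besides Usp53, of which 46 were tested. The edgeR test called 4 of them lower in Spns1 KO and 20 lower in FeO, which are 8.70% and 43.5% of the tested members beside 7.55% and 19.7% of all genes. The count called higher was 0 in both models by edgeR and by DESeq2, beside 14% and 22.4% of all genes by edgeR. At an unadjusted edgeR p under 0.05, 0 and 3 members were higher and 17 and 27 were lower. The family's median was -0.28 on the log2 scale for Spns1 KO and -0.46 for FeO, and 40 and 38 members had values below 0. Over all 16468 genes the medians were -0.05 and -0.01, and 8763 and 8312 had values below 0. The median longest transcript of the tested family members was 4732 bases, against 3297 over all genes. With the length and GC trend removed, 5 family members were called lower and 1 higher in FeO. In that fit 2092 of all 16162 genes were called lower and 3379 higher, so the family's larger share lower was not kept.

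Usp54, the closest relative of Usp53, was called lower in both models, at -0.85 (SE 0.20, edgeR adjusted p = 0.0076) and -0.69 (SE 0.20, edgeR adjusted p = 0.0111). Usp54 averaged 79.9 ± 7.89 CPM over WT (SD, n = 5), 44.4 ± 14.9 over Spns1 KO (SD, n = 4) and 49.4 ± 9.48 over FeO (SD, n = 4). All FeO libraries, at 37.3 to 60.1 CPM, were under the lowest WT library at 69.1 CPM. So were all Spns1 KO libraries, at 33.2 to 66.0 CPM. Every library of both models was below every WT library for 4.14% of all tested genes. The other members called lower in both models were Usp37, a deubiquitinase of the cell cycle, at -0.85 and -0.96, and Usp38 at -0.73 and -0.85. In all, 3 of the 46 tested members were called lower in both, beside 4.6% of all genes. Usp44 and Usp2 were called lower in FeO at -1.65 and -1.38 and had -0.76 and -1.12 without a call in Spns1 KO. Usp44 rested on 1 to 17 counts per library. Without Spns1 KO 4, 13 family members were called lower in Spns1 KO, beside 2677 of all 16651 genes. Without WT 3, 13 were called lower in FeO, beside 2561 of all 16410 genes.

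**Figure D5:**
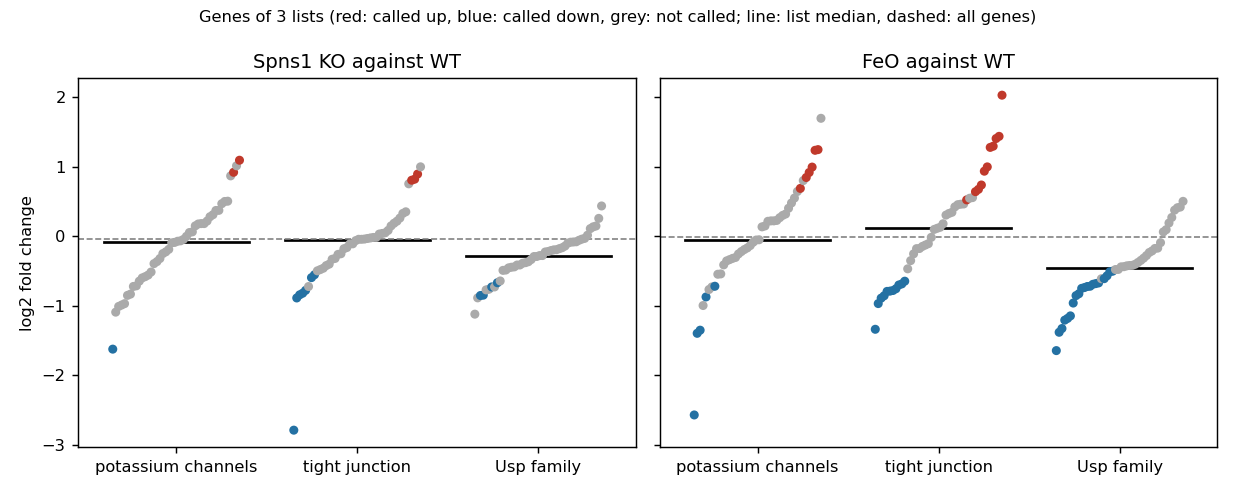
Log2 fold change against WT of every tested gene of the potassium channel, tight junction and Usp lists, sorted within each list, in Spns1 KO and in FeO, with red for genes called higher, blue for genes called lower and grey for the rest. Solid lines mark the list medians, which lie between -0.46 and 0.12, and the dashed line marks the median of all tested genes.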

How the data were processed

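Nascent RNA of 13 kidney samples (4 Spns1 KO, 5 WT, 4 FeO, grouped by their labels) was sequenced after streptavidin capture and poly-A selection. The authors deposited 1 table of estimated counts per gene symbol (expected counts that need not be whole), which were rounded here. The submitters' processing notes name bcl2fastq 2.19, kallisto 0.44.0, DESeq2 and GRCm38, whereas the study's methods describe alignment with STAR and counting with HTSeq. Estimated counts share ambiguous reads among transcripts, and whether strand was used is not given in the sources used here.

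Counts were fitted with edgeR 4.0.16 (R 4.3.3) by the quasi-likelihood test, with filterByExpr, TMM scaling and 1 fit of 13 libraries. Adjusted p-values are Benjamini-Hochberg over 16468 genes. Fits were tested on simulated data. Alternatives were DESeq2 1.42.0 (Wald test, and its size factors), no filter beyond a count above 0, fits of only the groups compared, a replicate block, a natural spline (4 degrees of freedom) of length and GC content as an offset, and leaving out each library. DESeq2 gave no p for Usp53. The labels do not say that each library is a separate animal, so p-values measure the spread between these libraries, which may be technical.

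The 3 genes and the lists were chosen with earlier results of these data known. Other genes were named by rule: known partners and the closest relative, neighbours, the 3 nearest in level, up to 4 genes per list called the same way in both models and up to 2 called in 1 model with the largest fold change, and those next in the ranking. A single gene that this rule names is not reported here. Genes called in opposite directions, other genes behind small counts and Spns1 were added.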

Additional observations from a re-analysis of the deposited data

Results flagged for a closer look

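Usp53 in Spns1 KO 4, at 145 CPM, stood apart from the other 3 Spns1 KO libraries, with a gap of 0.982 of the group's range, above Dixon's 95% critical value for 4 samples. In WT 3, Usp53 at 190 CPM stood above the other 4 WT libraries, with a gap of 0.785 of the range, above the critical value for 5 samples. The 3 genes in 3 groups gave 9 such checks, and chance flags about 1 in 20 groups.

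The change of Kcnma1 differed between the models by a log2 fold change of -1.21 for Spns1 KO minus FeO, in the edgeR test of the difference itself.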

How the results depend on the processing

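Over 6 alternatives to the fit, 108 of 123 values of 21 results were counted as kept. With 1 library left out, 250 of 273 values were counted as kept. For the direct comparisons of the models, kept means the same direction and the same call. The other values were judged by the size of their shift, so a moved value need not have crossed a limit. Kcnma1 in Spns1 KO against FeO stayed called under each alternative and with each library left out. It came nearest to the limit in the fit of only the groups compared, with an edgeR adjusted p = 0.049. With the length and GC trend removed, Kcnma1 against WT moved to -2.0 in Spns1 KO and -0.45 in FeO. The Usp family in FeO then had 1 gene called higher and 5 lower, the tight junction list 3 lower and the potassium channels 2 lower, while the potassium channels in Spns1 KO had 4 higher and 3 lower. Of all 16162 genes in that fit, 3379 were called higher and 2092 lower in FeO. In Spns1 KO, 1750 were called higher and 791 lower. By DESeq2, potassium channels lower in Spns1 KO were 3 and tight junction genes higher were 5. DESeq2 called 2583 genes higher and 1600 lower there, of 24727 with a count. With only the groups compared, Spns1 KO gave 4 potassium channels higher and 2 lower, and 5 tight junction genes higher. Of all 16293 genes in that fit, 2763 were called higher and 1395 lower. The causes were not tested.

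Leaving out 1 library moved Usp53 between -2.31 and -1.23 in Spns1 KO against WT and between -0.35 and 0.74 in Spns1 KO against FeO, with the reversal at -0.35 without Spns1 KO 4. Potassium channels called in Spns1 KO ranged from 1 to 3 higher and 1 to 5 lower, and in FeO from 3 to 10 higher and 3 to 6 lower. Tight junction genes higher in Spns1 KO ranged from 1 to 5. Usp genes lower ranged from 4 to 13 in Spns1 KO and 13 to 20 in FeO, and Usp genes higher in FeO from 0 to 2. Over the same fits, 16364 to 16707 genes were tested. All genes called in Spns1 KO ranged from 1531 to 3003 higher and 504 to 2677 lower. In FeO they ranged from 3294 to 4042 higher and 2333 to 3534 lower, so the list ranges are not read as particular to the lists.

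Same-numbered libraries of different groups had deviations correlated between -0.296 and 0.256, with 4 of 12 pairs over 0.1, so the numbers were not taken as a pairing. With the replicate number as a block, genes called in Spns1 KO against WT fell from 1243 lower and 2307 higher to 1057 and 1931. In the same fit with the replicate block, potassium channels called in Spns1 KO were 1 higher and 0 lower by edgeR, where DESeq2 without a block called 3 lower and 6 were lower at an unadjusted p under 0.05 in the fit without the block. Kcnma1 was at -1.24 (edgeR adjusted p = 0.0228) and Usp53 at 0.28 for Spns1 KO against FeO in the block fit. Kcnma1 rests on 42 to 282 counts a library, which limits its precision.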
